A study of Mus musculus with 6 samples.

Results

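Nobiletin on a high-fat diet was examined here in the active phase of the day. The calf muscle of aged mice fed a high-fat diet with nobiletin (HF.NOB) was set against that of mice fed the high-fat diet alone (HF), both taken at Zeitgeber time (ZT) 18, in the dark phase when mice are awake and feeding. The members are all genes whose normalised read count averaged 1 or more over the 6 libraries of the series, which were 20311 of the 26294 genes listed. Of these, 167 belonged to a list of liver transcripts and were set aside, and the remaining 20144 genes are described. The 2 genes just inside the limit, Gm614 and Sall1, both had a mean of 1.01, with 1.91 in HF.NOB and 1.13 in HF. The 2 just outside it, Mirlet7c-2 and Pitpnm2os1, were at 0 in both.

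All mice were male C57BL/6 of 24 to 26 months, and the diets were given for 5 to 6 months. HF.NOB mice had 0.1% Nobiletin in the high-fat diet, HF mice had the high-fat diet without the drug, and RD mice, used here as a second point of reference, had a regular diet without the drug. RNA was extracted from whole calf muscle, a mixture of gastrocnemius and soleus, so fibres of several types and every cell between them contributed to each value. Each condition at each time was 1 library, and nothing in the labels says how many animals went into it. The study's legend for these data gives a number of samples a group, and the deposited sheet is named as one of means, but neither says how animals were combined. There is therefore no replicate check anywhere below, and the 2 ZT18 libraries were not tested against each other alone. The edgeR fits given near the end also draw on other libraries of the series. The intervals given for folds cover counting error only and not the spread between mice. In such bulk samples, fewer cells of a type and less RNA per cell cannot be told apart.

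The values are read counts divided by one factor per library. The smallest step between values gave the worth of 1 read, and the ZT18 libraries held 31837501 reads in HF.NOB, 25363758 in HF and 26470781 in RD. The markers of muscle fibres were among the most abundant transcripts in every library: Acta1, the skeletal actin, had 788792 in HF.NOB, 712135 in HF and 788392 in RD, and Ckm, the muscle creatine kinase, had 520447 in HF.NOB, 434950.2 in HF and 582374 in RD. The HF library at ZT18 also held transcripts of liver. Alb, serum albumin, had 7.65 in HF.NOB, 885 in HF and 4.53 in RD, and Apob, the apolipoprotein of liver-made lipoproteins, had 0 in HF.NOB, 212 in HF and 1.13 in RD, so that it was at least 73.8-fold lower in HF.NOB when 0 reads are taken as at most 3. Of the 167 liver-list genes measured, 133 were at least 1.5-fold lower in HF.NOB and 123 were highest in the HF library of all 6. Their part in the other results was not tested, and where a cell type of liver could bear on a gene group its markers are given beside it.

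Nobiletin is a flavonoid of citrus peel that binds and activates the ROR nuclear receptors. RORs drive transcription of Arntl, the gene of the clock activator BMAL1, through short elements called ROREs, and the REV-ERB receptors Nr1d1 and Nr1d2 repress through the same elements. BMAL1 with CLOCK or NPAS2 binds E-boxes in the genes of the Period, Cryptochrome and REV-ERB repressors, which closes the loop. Skeletal muscle has its own copy of this clock, and it times fuel use between carbohydrate in the active phase and fat in the resting phase. Muscle fibres are broadly slow, built for endurance, or fast, and each kind has its own isoforms of myosin, troponin and the calcium pump. Between the fibres lie resident macrophages, which present antigen on MHC class II proteins, and any of these cells can answer interferon with a common set of antiviral genes.

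The promoter sequences below are shown because the gene groups that are described next, the clock, the interferon-stimulated genes and MHC class II, are each read through a known element. They come from RefSeq (GRCm38.p6), run 5′ to 3′ on the strand of the gene, and carry the element in capitals, found on either strand within 250 bases before and 50 after the annotated start. The first holds a RORE, which 1 of the 17 clock genes with a promoter in that table carried, against 0.459% of all 27025 genes.
Arntl (chr7:113207528-113207556, plus strand): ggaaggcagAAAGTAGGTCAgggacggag
The next 2 hold the E-box CACGTG, found in 5 of 17 clock genes and in 8.09% of all genes.
Ciart (chr3:95882237-95882374, minus strand): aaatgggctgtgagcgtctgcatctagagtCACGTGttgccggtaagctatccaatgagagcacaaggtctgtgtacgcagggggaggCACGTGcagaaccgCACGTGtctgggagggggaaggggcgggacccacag
Per1 (chr11:69098753-69098818, plus strand): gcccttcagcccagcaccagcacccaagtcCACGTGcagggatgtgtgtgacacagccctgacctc
The next 3 hold GAAANNGAAA or its complement, a core of the interferon-stimulated response element. It was found in 17 of 23 interferon-stimulated genes, against 3.99% of all genes, and neighbouring matches may overlap.
Oas1a (chr5:120907526-120907575, minus strand): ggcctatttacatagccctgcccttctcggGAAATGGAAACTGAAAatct
Ifit3 (chr19:34583343-34583446, plus strand): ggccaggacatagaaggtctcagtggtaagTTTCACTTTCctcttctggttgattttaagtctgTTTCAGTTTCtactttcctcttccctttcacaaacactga
Cxcl10 (chr5:92349063-92349132, minus strand): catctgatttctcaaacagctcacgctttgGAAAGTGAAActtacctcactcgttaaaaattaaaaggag
The last 2 hold CTGATTGG, a Y box known from MHC class II promoters, which 3 of 7 genes of that list carried, against 4.7% of all genes. The same letters stood in 6 of 9 MHC class I genes and 4 of 17 clock genes, Arntl and Per1 among them.
H2-Aa (chr17:34287837-34287904, minus strand): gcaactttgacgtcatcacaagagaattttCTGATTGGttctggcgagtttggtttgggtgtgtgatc
H2-Eb1 (chr17:34305775-34305842, plus strand): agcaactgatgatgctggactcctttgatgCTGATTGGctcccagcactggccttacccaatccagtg
A match is a run of letters and not a bound site, and binding was not measured in this series.

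Folds are given on the log2 scale of HF.NOB over HF after adding 1 to both values, so that they are positive where HF.NOB was higher and understate the difference of low genes. Where a number stands in brackets after the values of a gene, it is this log2 fold, and intervals are on the log2 scale too. Their median over the 20144 genes was 0.00, with quartiles of -0.20 and 0.19. At least 1.5-fold higher in HF.NOB were 1921 genes, 9.54% of those described, and 2406 genes, 11.9%, were at least 1.5-fold lower. Most of these had few reads. Among the 5377 genes with a mean of 1 to 10, 1420 were past 1.5-fold higher and 1684 past it lower, while of the 10340 genes that averaged 100 or more, 67 were that much higher (0.648%) and 114 that much lower (1.1%). The 95% interval of the ratio of both read counts, taken without the added 1, left out a ratio of 1 for 272 of the 1921 higher genes and for 568 of the 2406 lower ones. By any amount, 50.3% of genes were higher and 48.9% lower, which is the background for the list counts below. HF.NOB at ZT18 was the lowest of the 6 libraries for 10.3% of genes and the highest for 11.4%, and HF at ZT18 was the lowest for 15.6% and the highest for 15.3%. Fold and transcript length were almost unrelated at this time: over 9998 protein-coding genes that averaged 100 or more, the Spearman correlation was 0.07, a description over genes that share both libraries. At ZT6 it was -0.75 over the same genes, short transcripts being higher and long ones lower in HF.NOB than in HF, so the ZT6 values of HF.NOB below, and every place among 6 libraries, include that library. Its part in them was not tested.

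**Figure D1:**
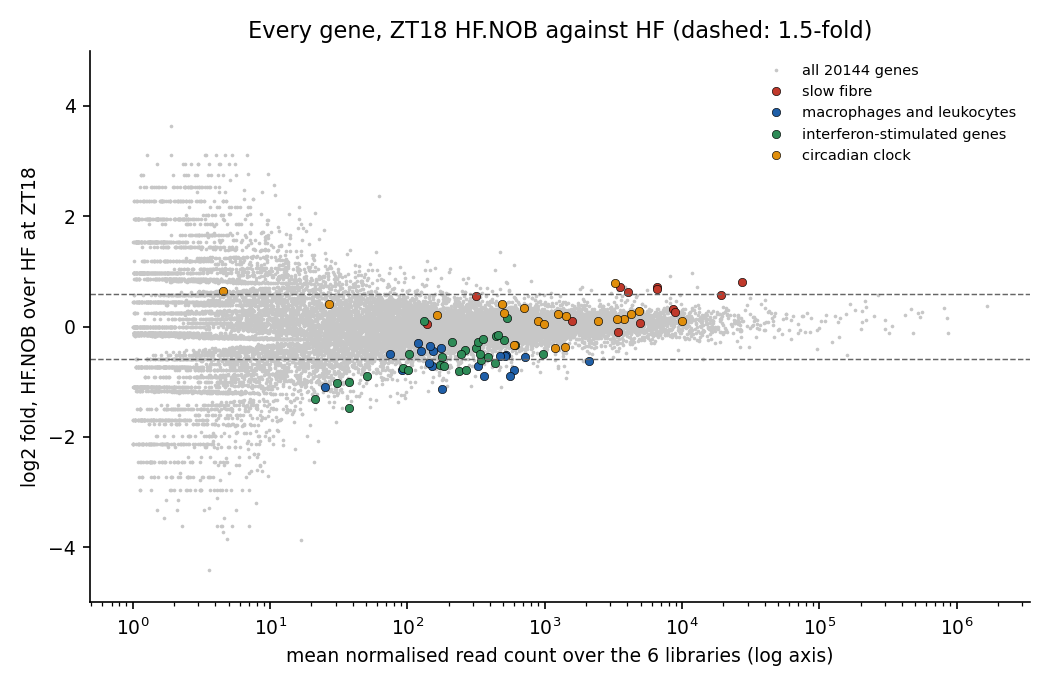
Log2 fold of HF.NOB over HF at ZT18 (vertical axis) against the mean normalised read count over the 6 libraries (horizontal axis, log scale) for 20144 genes, 1 point each, with 4 gene lists in colour and 1.5-fold as dashed lines. The spread is widest below a mean of 10; most slow fibre genes lie above 0, and all macrophage and leukocyte genes lie below it.

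The genes were read through 61 lists of tissue functions and cell types besides that of liver. Slow and fast fibre isoforms, calcium handling and most of the clock were higher in HF.NOB, while giant sarcomere proteins and developmental isoforms were split. Genes of fat use were somewhat lower, and the respiratory chain was close to level. The genes of macrophages, MHC class II presentation and the interferon response were lower, and their medians were the lowest apart from that of the scarcely detected lymphocyte markers.

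**Figure D2:**
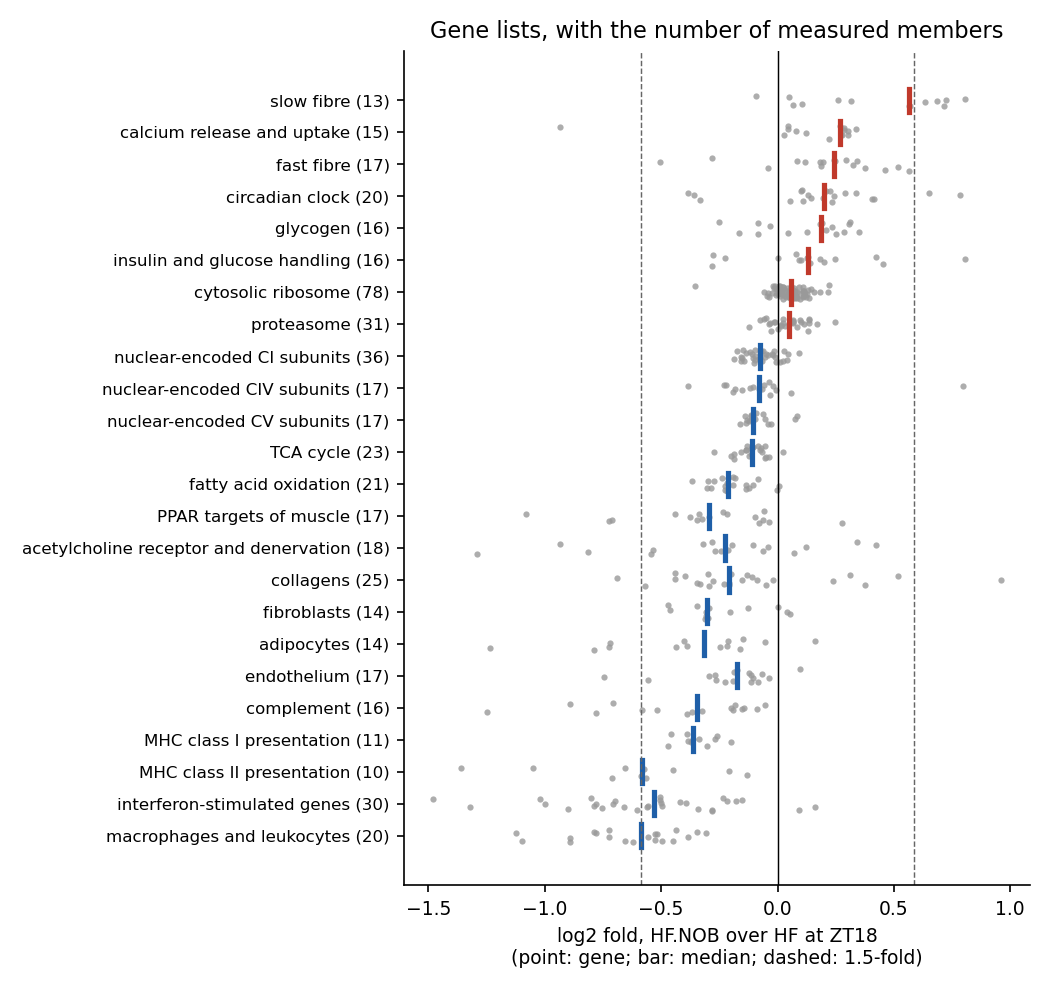
Log2 fold of HF.NOB over HF at ZT18 (horizontal axis) for the members of 24 lists (rows, with the number of measured members in brackets), 1 grey point per gene, with the list's median as a bar (red above 0, blue below). Slow fibre genes have the highest median, 0.56, and macrophage and leukocyte genes the lowest, -0.59.

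Of the 20 genes of the circadian clock and its receptors, 17 were higher in HF.NOB and 3, Per1, Per2 and Dbp, were lower, against 50.3% and 48.9% of all genes, with a median of 0.20. Past 1.5-fold were 2 of the higher genes, against 9.54% of all genes. The leading member was Nr1d1, which encodes the repressor REV-ERBα (chr11:98767932-98775333, GENCODE M21). Its normalised read count at ZT18 was 1959 in HF.NOB, 1138 in HF and 1467 in RD, and at ZT6 3818 in HF.NOB, 4831 in HF and 6267 in RD. HF.NOB was the highest of the ZT18 libraries, while all 3 ZT6 libraries were higher than any at ZT18. The log2 fold over HF was 0.78 (95% counting interval 0.67 to 0.89). Its paralog Nr1d2 was nearly level, with 3410.2 in HF.NOB, 3088 in HF and 3042 in RD and a log2 fold of 0.14.

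Of the activators, Arntl had 978 in HF.NOB, 775 in HF and 1021 in RD at ZT18, a log2 fold of 0.34 (0.19 to 0.48), and 509 in HF.NOB, 330.4 in HF and 637 in RD at ZT6. Clock, its partner, had 1631 in HF.NOB, 1424 in HF and 1651 in RD, a log2 fold of 0.19 (0.09 to 0.30). For both, HF.NOB lay beside RD and above HF. Npas2, which can replace Clock, had only 28.7 in HF.NOB, 21.4 in HF and 28.3 in RD, and its interval of -0.45 to 1.33 spanned 0. Arntl2, a paralog of Arntl that is not among the 20 genes counted above, had 65 in HF.NOB, 67.6 in HF and 66.8 in RD, a log2 fold of -0.06 (-0.58 to 0.47). Rora, one of the receptors that nobiletin binds, had 5284 in HF.NOB, 4324 in HF and 5958 in RD (0.29, interval 0.23 to 0.35), with RD the highest of the ZT18 libraries. Rorb, at 7.65 in HF.NOB and 4.51 in HF, rested on too few reads to compare, and it was the other gene past 1.5-fold.

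Among the repressors of the loop, Per1 and Per2 were the ones lower in HF.NOB. Per1 had 709.6 in HF.NOB, 912 in HF and 1889.9 in RD, a log2 fold of -0.36 (-0.51 to -0.22), and Per2 had 572 in HF.NOB, 721 in HF and 549.99 in RD, a log2 fold of -0.33 (-0.50 to -0.17). HF.NOB was the lowest of the 6 libraries for Per1, and RD was more than both high-fat libraries together. Cry1 (621 in HF.NOB, 525 in HF and 612 in RD), Bhlhe40 (3271 in HF.NOB, 2796 in HF and 2679.8 in RD) and Bhlhe41 (996 in HF.NOB, 847 in HF and 951 in RD) had their HF.NOB value above the HF one, with log2 folds of 0.24, 0.23 and 0.23. Cry2 and Per3 had log2 folds of 0.11 and 0.05, and Ciart, with 3 E-boxes in the promoter shown above, had 57.4 in HF.NOB, 49.6 in HF and 36.2 in RD, with an interval of -0.37 to 0.81.

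The output factors, which bind D-boxes and carry the clock's timing to other genes, were mixed. Dbp had 304 in HF.NOB, 398 in HF and 326 in RD (-0.39, interval -0.61 to -0.16), and at ZT6 1878 in HF.NOB, 2234 in HF and 1983 in RD, so all ZT18 libraries were far below all ZT6 ones. Hlf had 501 in HF.NOB, 375 in HF and 446 in RD (0.42, interval 0.22 to 0.62), and Tef had 9412 in HF.NOB, 8756 in HF and 10064 in RD (0.10). Nfil3, the repressor of the same elements, had 1283 in HF.NOB, 1197 in HF and 1535 in RD (0.10, interval -0.02 to 0.22).

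**Figure D3:**
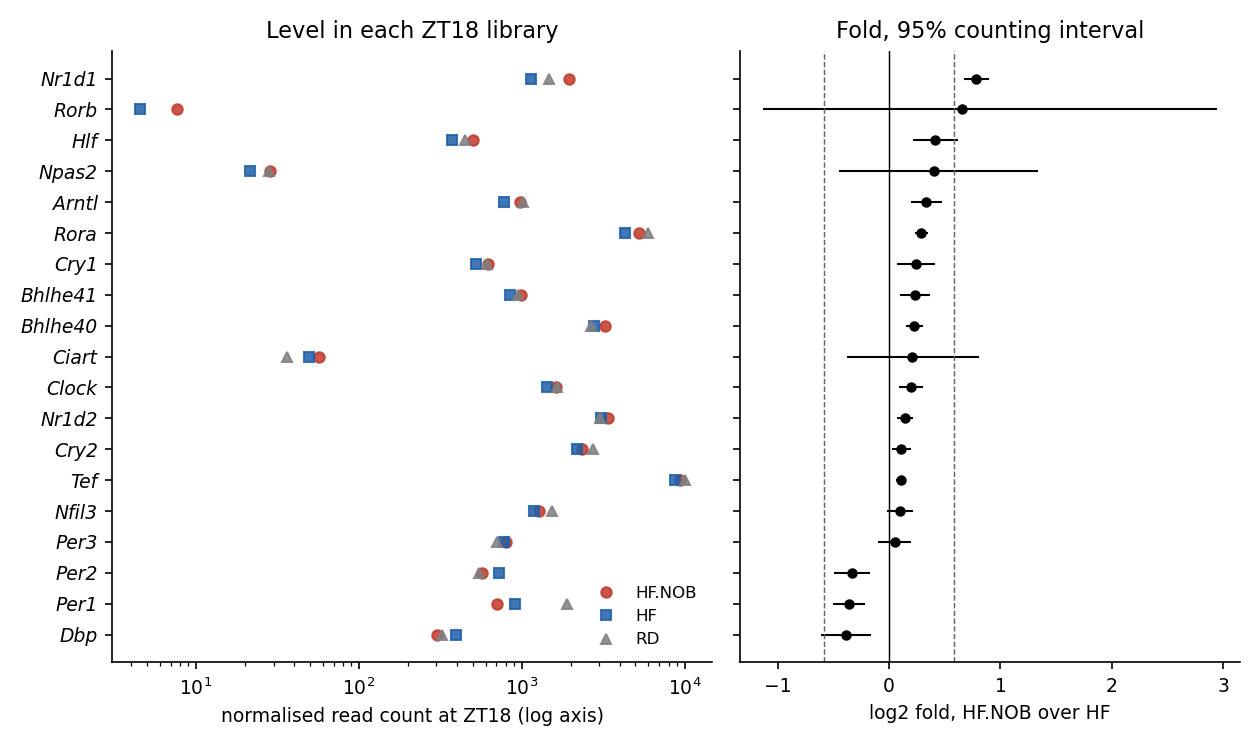
Left: normalised read count (log axis) of clock genes in the ZT18 libraries of HF.NOB, HF and RD; right: log2 fold of HF.NOB over HF with its 95% counting interval and 1.5-fold as dashed lines. Nr1d1 has the highest fold, 0.78, and Per2, Per1 and Dbp are the 3 genes below 0.

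The slow fibre programme had the highest median of all lists. Of its 13 genes, 12 were higher in HF.NOB, 5 of them at least 1.5-fold, against 9.54% of all genes and 0.648% of the well-expressed ones, and the median log2 fold was 0.56. Myh7, the slow myosin heavy chain (chr14:54970684-54994626), had 37585 in HF.NOB, 21511 in HF and 23731 in RD at ZT18, a log2 fold of 0.81 (0.78 to 0.83), and 21509 in HF.NOB, 32810.2 in HF and 25607 in RD at ZT6. HF.NOB at ZT18 was the highest of the 6 libraries, and the HF library at ZT6 came next, so HF itself spanned 21511 to 32810 between the 2 times. The thin-filament isoforms of slow fibres stood in the same order between HF.NOB and HF. Tnnt1, slow troponin T, had 7688 in HF.NOB, 4654 in HF and 4720.1 in RD (0.72), Tnnc1, slow troponin C, had 4166 in HF.NOB, 2539 in HF and 2507 in RD (0.71), Tnni1, slow troponin I, had 5161 in HF.NOB, 3328 in HF and 2588 in RD (0.63), and Tpm3, slow tropomyosin, had 7904 in HF.NOB, 4912 in HF and 5335 in RD (0.69). In each of these 4 genes HF and RD at ZT18 were closer to each other than to HF.NOB, and HF.NOB at ZT6 was the highest of the 6 libraries. Atp2a2, the slow calcium pump SERCA2, had 26353 in HF.NOB, 17736 in HF and 15976 in RD, a log2 fold of 0.57 (0.54 to 0.60), just under 1.5-fold. Over the whole list, 11 of 13 genes were higher in HF.NOB than in RD as well, and 8 of 13 were higher in HF than in RD.

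Fast fibre genes were mostly higher in HF.NOB too, by less. Of 17 genes 14 were higher and 3 (Myh1, Myh2 and Myoz3) lower, none past 1.5-fold, with a median log2 fold of 0.24. HF at ZT18 was the lowest of the 6 libraries for 13 of the 17, against 15.6% of all genes, and HF.NOB was below RD for 11 of 17. Actn3, the fast-fibre actinin, had 264376 in HF.NOB, 178816 in HF and 339259.8 in RD (0.56), Mylk2, the skeletal myosin light-chain kinase, had 32591 in HF.NOB, 22788 in HF and 39458 in RD (0.52), and Mybpc2, fast myosin-binding protein C, had 226664 in HF.NOB, 164404 in HF and 245474 in RD (0.46). Myh4, the heavy chain of the fastest fibres and the most abundant of the 4 adult chains, had 1774979 in HF.NOB, 1368439 in HF and 1782548 in RD (0.38), and Atp2a1, the fast calcium pump SERCA1, had 829715 in HF.NOB, 654055 in HF and 946547 in RD (0.34). In all 5 genes HF was the low library and HF.NOB lay nearer to RD.

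Myh1, the heavy chain of 2X fibres, went the other way with 138335 in HF.NOB, 196605 in HF and 151875 in RD (-0.51), as did Myh2, that of 2A fibres, with 127536 in HF.NOB, 154899.9 in HF and 105637 in RD (-0.28, chosen after its values were seen). Divided by transcript length, Myh7 made up 1.75% of the sum of the 4 adult chains in HF.NOB, 1.2% in HF and 1.11% in RD. Myh1 made up 6.6% in HF.NOB, 11.2% in HF and 7.29% in RD, and Myh2 made up 6.08% in HF.NOB, 8.82% in HF and 5.07% in RD. Myh4 was the rest, 85.6% in HF.NOB, 78.8% in HF and 86.5% in RD. The HF library at ZT18 had the highest Myh1 and Myh2 shares of the 6, and HF.NOB at ZT18 the highest Myh7 share. Myh1, Myh2 and Myh4 lie side by side on chromosome 11 and are nearly identical in sequence, so the division of reads among them is uncertain. The share of soleus, the slow muscle of the calf, in each piece of tissue was not recorded in the labels and its part in these values was not tested.

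**Figure D4:**
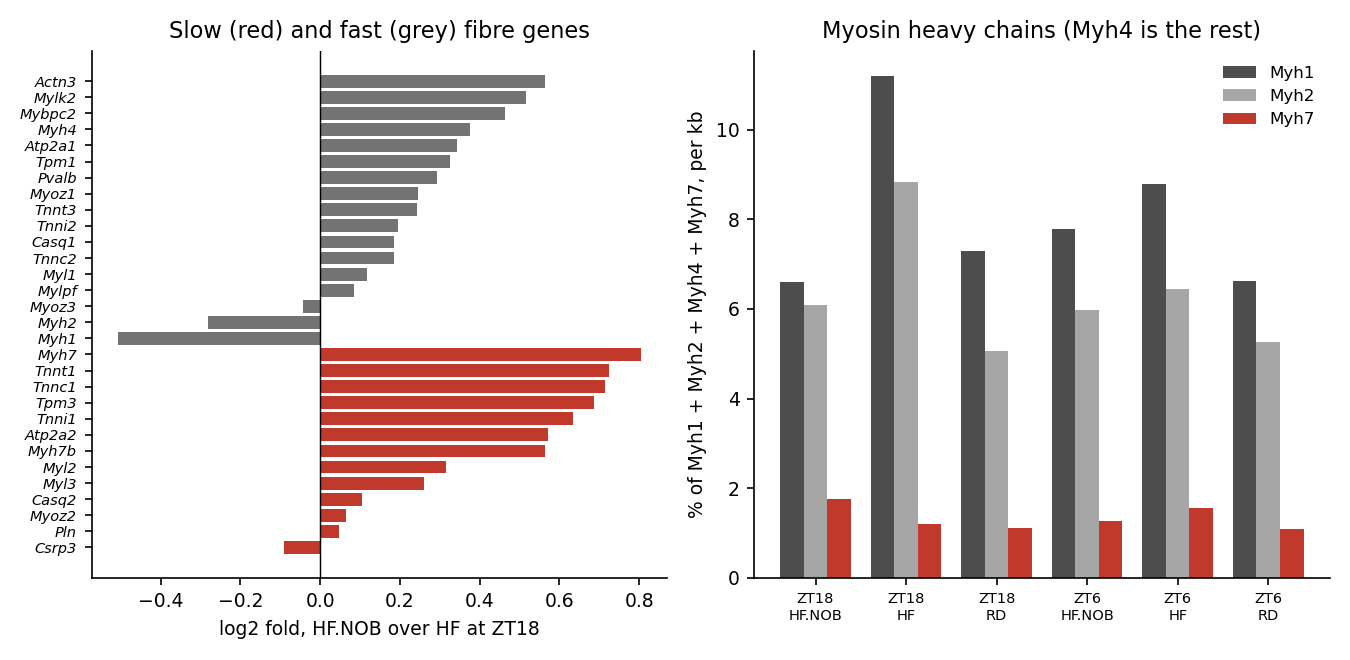
Left: log2 fold of HF.NOB over HF at ZT18 for 17 fast (grey) and 13 slow (red) fibre genes; right: Myh1, Myh2 and Myh7 as a percentage of the 4 adult myosin heavy chains per kilobase of transcript in each of the 6 libraries, 1 bar per library, with Myh4 as the remainder. Myh7 is 1.75% in HF.NOB and 1.2% in HF at ZT18, and Myh1 is 6.6% in HF.NOB and 11.2% in HF.

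Contractile genes outside the slow and fast lists were split. Of 19 giant sarcomere and membrane proteins 9 were higher and 10 lower, none past 1.5-fold, with a median of 0.00 and a range of -0.29 to 0.19. Myom1 and Myom3, myomesins of the M-band, differed in direction. Myom1 had 78214 in HF.NOB, 68568 in HF and 83920.4 in RD (0.19), and Myom3 had 6361 in HF.NOB, 7803 in HF and 4622 in RD (-0.29). Of 5 developmental myosin and actin genes 2 were higher and 3 lower (median -0.13), and Actc1, the cardiac actin of immature muscle, differed most, with 1937 in HF.NOB, 2686 in HF and 1196 in RD (-0.47).

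Of 15 genes of calcium release and uptake 14 were higher, and the median was 0.27, none of the 14 being past 1.5-fold. Cacna1s, the voltage sensor of the transverse tubule, had 47396 in HF.NOB, 37519.5 in HF and 43538 in RD (0.34), and Cacng1, its gamma subunit, had 11247 in HF.NOB, 9105 in HF and 12563 in RD (0.30). Trdn, triadin, which anchors the release complex, had 43328 in HF.NOB, 35564 in HF and 43158 in RD (0.28). HF at ZT18 was the lowest library for 8 of the 15. The exception was Sln, sarcolipin, a small peptide that uncouples calcium transport by the pump from its ATP use. It had 754 in HF.NOB, 1441 in HF and 1153 in RD at ZT18, a log2 fold of -0.93 (-1.07 to -0.81), and 3858 in HF.NOB, 635 in HF and 731 in RD at ZT6. HF.NOB was the lowest of the ZT18 libraries and the highest of the ZT6 ones, so its difference from HF had opposite signs at the 2 times.

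Other abundant genes higher in HF.NOB, chosen by the rule for genes that averaged 500 or more, led with Cdh4, a cadherin, which had 887 in HF.NOB, 409 in HF and 684 in RD (1.12, interval 0.94 to 1.30). Mss51, a mitochondrial protein of muscle whose loss raises oxidative metabolism in mice, had 16589 in HF.NOB, 8432 in HF and 9779 in RD (0.98, interval 0.94 to 1.02), with HF.NOB the highest of the 6 libraries. Pfkfb3, which makes the activator of phosphofructokinase, had 5556 in HF.NOB, 2933 in HF and 2883 in RD (0.92), and its ZT6 values were 6059.8 in HF.NOB, 11467 in HF and 20198 in RD. Slc2a3, a glucose transporter, had 578 in HF.NOB, 330.2 in HF and 813 in RD (0.80), Chac1, a stress-induced enzyme that breaks down glutathione, had 729 in HF.NOB, 411 in HF and 659 in RD (0.82), and Mib1, a ubiquitin ligase that acts on Notch ligands, had 16159 in HF.NOB, 9770.1 in HF and 14446 in RD (0.73). Mstn, myostatin, the secreted brake on muscle growth, had 1905 in HF.NOB, 1152 in HF and 2208 in RD (0.73). For Cdh4, Slc2a3, Chac1, Mib1 and Mstn the HF library was the lowest at ZT18, and HF.NOB was above RD for Cdh4, Chac1 and Mib1 and below it for Slc2a3 and Mstn. For Mss51 and Pfkfb3, HF and RD were closer to each other than to HF.NOB, which was above both.

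The respiratory chain, the machinery of oxidative phosphorylation in mitochondria, was close to level and leaned lower. Of the 36 nuclear-encoded subunits of complex I (CI) 6 were higher than in HF (median log2 fold -0.07), and 35 were above RD. None of the 4 CII subunits was higher (median -0.13) and none of the 9 CIII subunits (median -0.11), while all 4 and all 9 were above RD. CIV had 2 of 17 higher (median -0.08) and CV 2 of 17 (median -0.11), with 13 and 16 of them above RD. Atp5b, the catalytic beta subunit of CV, had 75747 in HF.NOB, 80793 in HF and 69488 in RD (-0.09), Atp5d, its delta subunit, had 6879 in HF.NOB, 7561 in HF and 6471 in RD (-0.14), and Cox7a2l, a factor that joins complexes III and IV, had 2903 in HF.NOB, 2919.7 in HF and 2818 in RD (-0.01). All 3 were above RD in HF.NOB, and the interval of Cox7a2l, -0.08 to 0.07, spanned 0. The study cites earlier work in which C57BL/6 mice make a shortened form of the Cox7a2l protein. Of these 5 lists only Cox6b2, a testis-type CIV subunit, passed 1.5-fold, on 10.5 in HF.NOB and 5.63 in HF and with an interval of -0.74 to 2.78. The 13 mitochondrially encoded subunits had a median of -0.06, and mt-Co1, the core of CIV, had 933290.4 in HF.NOB, 1009502 in HF and 722289.9 in RD (-0.11). In the TCA cycle 22 of 23 genes were lower, by little (median -0.11), and Mdh1, cytosolic malate dehydrogenase, differed most, with 17215 in HF.NOB, 20781 in HF and 14171 in RD (-0.27).

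Most genes of fat use were lower in HF.NOB than in HF and higher than in RD. Of 21 genes of fatty acid oxidation 20 were lower (median -0.21, none past 1.5-fold), and 20 of 21 were above RD in HF.NOB. Cpt1a and Cpt2, the carnitine transferases that bring fatty acids into mitochondria, had 417 in HF.NOB, 538 in HF and 241 in RD (-0.37) and 2417 in HF.NOB, 2983 in HF and 1558 in RD (-0.30). Hadha, of the trifunctional protein, had 16746 in HF.NOB, 19753 in HF and 10941 in RD (-0.24). In all 3 genes HF.NOB lay between HF and RD and closer to HF.

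PPAR targets are genes that fatty acids switch on through their nuclear receptors. Of 17, 16 were lower than in HF (median -0.29), 3 of them past 1.5-fold, against 11.9% of all genes, and 15 of 17 were above RD. Angptl4, an inhibitor of lipoprotein lipase, had 340.4 in HF.NOB, 721 in HF and 45.3 in RD (-1.08, interval -1.27 to -0.89), and 369 in HF.NOB, 202 in HF and 68.1 in RD at ZT6. Cidec, which enlarges lipid droplets, had 396 in HF.NOB, 655 in HF and 196 in RD (-0.72), and Ucp2, an inner-membrane carrier, had 435 in HF.NOB, 713 in HF and 478 in RD (-0.71). Pdk4, which shuts off the entry of carbohydrate carbon into the TCA cycle, had 39619 in HF.NOB, 51473 in HF and 10258 in RD (-0.38, interval -0.40 to -0.36). The HF library at ZT18 was the highest of the 6 for 9 of the 17, against 15.3% of all genes. Of 15 PPAR, PGC-1 and ERR regulators of these genes 11 were lower (median -0.12). Ppargc1a, the coactivator PGC-1α, had 1558 in HF.NOB, 2181 in HF and 1632 in RD (-0.48, interval -0.58 to -0.39), and Ppara had 497 in HF.NOB, 633 in HF and 539 in RD (-0.35).

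Genes of carbohydrate use leaned higher in HF.NOB than in HF. Of 16 glycogen genes 11 were higher (median 0.19), led by Pygm, muscle glycogen phosphorylase, with 226395 in HF.NOB, 177573 in HF and 241015 in RD (0.35), and Gyg, glycogenin, the primer of glycogen, with 11472 in HF.NOB, 9256 in HF and 13488 in RD (0.31). Of 16 genes of insulin action and glucose handling 13 were higher (median 0.13), among them the adaptors Irs1, with 1818 in HF.NOB, 1357 in HF and 1403 in RD (0.42), and Irs2, with 787 in HF.NOB, 575 in HF and 593 in RD (0.45). Pik3r1, a regulatory subunit of the kinase below them, was lower, with 1705 in HF.NOB, 2071 in HF and 3659.8 in RD (-0.28). Against RD, 3 of these 16 genes were higher in HF.NOB, Irs1 and Irs2 among them, and 13 were lower. Glycolysis itself had a median of -0.03 over 18 genes, with 8 higher and 10 lower. In lipid synthesis, Me1, malic enzyme, had 8923 in HF.NOB, 6233 in HF and 8508 in RD (0.52), whereas Dgat2, the last step of triglyceride synthesis, had 2169.9 in HF.NOB, 2942 in HF and 1498 in RD (-0.44), and Fasn, fatty acid synthase, had 876 in HF.NOB, 1169.7 in HF and 1289 in RD (-0.42). The 18 cholesterol synthesis genes were split, 10 higher and 8 lower.

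Genes that muscle expresses when it loses its nerve, and that damaged fibres also express, were mostly lower. Of 18 such genes 14 were lower (median -0.23), Sln among them. Gadd45a, a stress gene of denervation, had 1157 in HF.NOB, 2037 in HF and 1042 in RD at ZT18 (-0.82, interval -0.92 to -0.71), and 2475 in HF.NOB, 967 in HF and 1029 in RD at ZT6. Runx1 and Myog, transcription factors of the same state, had 343 in HF.NOB, 501 in HF and 279.5 in RD (-0.55) and 206 in HF.NOB, 299 in HF and 216 in RD (-0.54). For Gadd45a, Runx1 and Myog the HF library was the highest of the ZT18 libraries. Chrne, the adult acetylcholine receptor subunit, was higher, with 466 in HF.NOB, 347 in HF and 437 in RD (0.42).

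Atrophy and stress genes gave no single direction. The 20 genes of the FOXO list had a median of 0.10, with 12 higher and 8 lower. Ddit4, an inhibitor of the growth kinase mTORC1, had 186 in HF.NOB, 312 in HF and 635 in RD (-0.74, interval -1.02 to -0.47). It is also a gene of the glucocorticoid list, of whose 22 members 16 were lower (median -0.23) and 5 past 1.5-fold, against 11.9% of all genes. Mt2, a metallothionein that binds zinc and copper, had 132 in HF.NOB, 206 in HF and 2099 in RD (-0.64), and the log2 fold of its neighbour Mt1 was -0.80. Cdkn1a, the cell cycle inhibitor p21, had 1336 in HF.NOB, 2049.8 in HF and 2956 in RD (-0.62). The RD library was the highest of all 6 for Ddit4, Mt2 and Cdkn1a, and 21 of the 22 glucocorticoid-list genes were below RD in HF.NOB and 21 in HF. Antioxidant enzymes had a median of -0.09 over 25 genes, 18 of them lower: Gpx1, a glutathione peroxidase, had 984 in HF.NOB, 1159.6 in HF and 1124 in RD (-0.24), Txn2, mitochondrial thioredoxin, had 4159 in HF.NOB, 4637 in HF and 4077 in RD (-0.16), its cytosolic form Txn1 had 895 in HF.NOB, 1015 in HF and 959 in RD (-0.18), and the superoxide dismutases Sod1, Sod2 and Sod3 had log2 folds of 0.03, -0.08 and -0.20. Ucp1, the uncoupler of brown fat, had 189 in HF.NOB, 234 in HF and 221 in RD (-0.31). Immediate early genes and the unfolded protein response both had a median of 0.00, over 25 and 23 genes.

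Of 18 proliferation genes 11 were lower, 5 past 1.5-fold, against 11.9% of all genes. The median was -0.14, and it became 0.13 once the trend with transcript length was subtracted and the scarcest genes were dropped. Mki67, a marker of cycling cells, had 38.3 in HF.NOB, 107 in HF and 21.5 in RD (-1.46, interval -2.06 to -0.94), Top2a, topoisomerase of dividing cells, had 21 in HF.NOB, 59.7 in HF and 14.7 in RD (-1.46, interval -2.29 to -0.76), and Rrm2, which makes deoxynucleotides, had 23 in HF.NOB, 59.7 in HF and 36.2 in RD (-1.34, interval -2.14 to -0.66). For these 3 genes the HF library at ZT18 was the highest of the 6. Aurka, a mitotic kinase, went the other way with 263 in HF.NOB, 169 in HF and 250.1 in RD (0.63).

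Ribosomal and proteasomal genes differed by small amounts. Of 78 cytosolic ribosomal proteins 65 were higher, with a median of only 0.06, and the HF library at ZT18 was the lowest of the 6 for 62 of them. All 78 were below RD both in HF.NOB and in HF. The lowest fold was that of Rpl3, with 1579 in HF.NOB, 2018 in HF and 2100.4 in RD (-0.35). Of 78 mitochondrial ribosomal proteins 57 were lower (median -0.05). The constitutive proteasome had a median of 0.05 over 31 genes.

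All 20 macrophage and leukocyte genes were lower in HF.NOB than in HF, 10 of them at least 1.5-fold, against 11.9% of all genes and 1.1% of the well-expressed ones, and the median log2 fold was -0.59. All 20 were also below RD at ZT18, and HF.NOB at ZT18 was the lowest of the 6 libraries for 17 of 20, against 10.3% of all genes. The summed value of the list was 5352 in HF.NOB, 8360.3 in HF and 7900.1 in RD at ZT18, and 9330 in HF.NOB, 8103 in HF and 6396 in RD at ZT6. Ptprc, the pan-leukocyte antigen CD45 (chr1:138062861-138175708), had 119.5 in HF.NOB, 261 in HF and 165 in RD at ZT18, a log2 fold of -1.12 (-1.45 to -0.81), and 189 in HF.NOB, 214 in HF and 125 in RD at ZT6. Laptm5, a lysosomal protein of blood cells, had 256 in HF.NOB, 477 in HF and 347 in RD (-0.89, interval -1.12 to -0.67), and Cd53, a leukocyte tetraspanin, had 62.2 in HF.NOB, 108 in HF and 82.6 in RD (-0.79, interval -1.28 to -0.33). Aif1, a macrophage protein, had 10.5 in HF.NOB, 23.7 in HF and 26 in RD. For each of these 4 genes HF.NOB was the lowest library at ZT18.

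Because the HF library held liver transcripts, markers of Kupffer cells, the resident macrophages of liver, are given as well, chosen after their values were seen. Clec4f had 0 in HF.NOB, 4.51 in HF and 1.13 in RD, Vsig4 had 18.2 in HF.NOB, 24.8 in HF and 24.9 in RD, Timd4 had 18.2 in HF.NOB, 38.3 in HF and 23.8 in RD, Cd5l had 1.91 in HF.NOB, 6.76 in HF and 7.92 in RD and Marco had 0 in HF.NOB, 1.13 in HF and 0 in RD. Of the ZT18 libraries, HF was the highest for Clec4f, Timd4 and Marco, and RD for Cd5l and Vsig4. The part of liver cells in the leukocyte difference was not tested. Against RD, a comparison that shares the HF.NOB library and leaves out the HF one, the median log2 fold of HF.NOB over the leukocyte list was -0.52. Lymphocyte markers were near the limit of detection, with a summed value of 48.8 in HF.NOB, 84.5 in HF and 55.5 in RD over 16 genes. Of them 11 were lower, and Cd79a, a B cell receptor subunit, had 0 in HF.NOB, 6.76 in HF and 1.13 in RD.

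Complement, the plasma cascade that tags cells for removal, was lower in all 16 genes measured (median -0.35), 4 of them past 1.5-fold, against 11.9% of all genes. The list shares the C1q chains with that of macrophages. The C1q chains, which resident macrophages make, had 402 in HF.NOB, 689.7 in HF and 595 in RD for C1qa (-0.78), 361 in HF.NOB, 669 in HF and 568 in RD for C1qb (-0.89) and 401 in HF.NOB, 574 in HF and 524 in RD for C1qc (-0.52). C4b, the next component, had 915 in HF.NOB, 1495 in HF and 1341 in RD (-0.71, interval -0.83 to -0.59), and C3ar1, a receptor for the split product of C3, had 49.7 in HF.NOB, 119 in HF and 108 in RD (-1.25, interval -1.77 to -0.77). HF.NOB was the lowest of the 6 libraries for 10 of the 16. Liver makes much of the complement of plasma, and the liver marker Alb had 7.65 in HF.NOB, 885 in HF and 4.53 in RD. C3, the central component, had 2225 in HF.NOB, 2913 in HF and 3906 in RD (-0.39, chosen after its values were seen). The part of liver transcripts in the complement values was not tested.

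Among 21 chemokines and cytokines 18 were lower (median -0.39), 9 of them past 1.5-fold, against 11.9% of all genes. Ccl8, Ccl9 and Ccl6, ligands that draw monocytes, had 43 in HF.NOB, 99.2 in HF and 102 in RD (-1.19), 113 in HF.NOB, 217 in HF and 232 in RD (-0.94) and 187 in HF.NOB, 348 in HF and 481 in RD (-0.89). Ccl2, a major monocyte attractant, had 15.3 in HF.NOB, 34.9 in HF and 37.3 in RD (-1.14), and Cxcl13, which draws B cells, had 12.4 in HF.NOB, 33.8 in HF and 276 in RD (-1.37), a gene for which RD was far above both. Il6 and Tnf had 1.91 in HF.NOB and 2.25 in HF and 3.83 in HF.NOB and 3.38 in HF, 2 to 4 reads each, too few for a difference to be detectable at this depth. Lbp, which carries bacterial lipopolysaccharide, had 269.7 in HF.NOB, 358 in HF and 295 in RD (-0.41, interval -0.65 to -0.17). Lbp is made in liver too, and whether liver RNA bears on its value in HF was not tested.

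MHC class II, the proteins with which macrophages and B cells show antigen to T cells, was lower in HF.NOB in all 10 genes, with a median of -0.58. Of the 10, 5 were past 1.5-fold, against 11.9% of all genes. H2-Eb1, the beta chain of I-E (chr17:34305867-34316674), whose Y box is shown above, had 593 in HF.NOB, 971 in HF and 704 in RD at ZT18 (-0.71, interval -0.86 to -0.56), and 1327 in HF.NOB, 1106 in HF and 607 in RD at ZT6. H2-Ab1 and H2-Aa, the chains of I-A, had 558 in HF.NOB, 880.1 in HF and 685 in RD (-0.66) and 735 in HF.NOB, 1087 in HF and 750.3 in RD (-0.56). Cd74, the invariant chain that guards the groove, was the most abundant, with 1922 in HF.NOB, 2866 in HF and 2239.6 in RD (-0.58, interval -0.66 to -0.49). For these 4 genes HF.NOB was the lowest and HF the highest of the ZT18 libraries. The peptide editors H2-DMa, H2-DMb1 and H2-DMb2 had 70.8 in HF.NOB and 96.9 in HF, 56.4 in HF.NOB and 62 in HF and 8.61 in HF.NOB and 23.7 in HF, and their partners H2-Oa and H2-Ob had 1.91 in HF.NOB and 3.38 in HF and 7.65 in HF.NOB and 16.9 in HF. Ciita, the coactivator that switches class II genes on, had 53.6 in HF.NOB, 62 in HF and 58.8 in RD (-0.21, interval -0.77 to 0.35), a difference within its counting error.

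MHC class I, which every nucleated cell carries, was lower in all 11 genes by a smaller amount (median -0.36, none past 1.5-fold). B2m, the shared light chain, had 2825 in HF.NOB, 3688 in HF and 2792 in RD (-0.38), H2-D1, a classical heavy chain, had 2673 in HF.NOB, 3436 in HF and 2907 in RD (-0.36), and Tap1, the peptide pump, had 179 in HF.NOB, 248 in HF and 256 in RD (-0.47). HF.NOB lay close to RD for B2m. Members of the H2-Q and H2-D families are near-identical copies and the division of reads among them is uncertain. The immunoproteasome was lower in all 5 genes, with Psmb8 and Psmb9, its catalytic subunits, at 157 in HF.NOB, 233 in HF and 169.7 in RD (-0.57) and 87 in HF.NOB, 131 in HF and 119 in RD (-0.58).

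Of 30 interferon-stimulated genes 28 were lower, 13 of them at least 1.5-fold, against 11.9% of all genes, and the median was -0.53. Oas1a, a sensor of double-stranded RNA (chr5:120896256-120907521), with overlapping response elements just before its start, had 19.1 in HF.NOB, 55.2 in HF and 15.8 in RD at ZT18 (-1.48, interval -2.36 to -0.75), and 81.3 in HF.NOB, 32.9 in HF and 21.4 in RD at ZT6. The antiviral GTPases Mx1 and Mx2 had 13.4 in HF.NOB, 34.9 in HF and 14.7 in RD (-1.32) and 23.9 in HF.NOB, 49.6 in HF and 7.92 in RD (-1.02). Ifit3, an RNA-binding effector, had 179 in HF.NOB, 312 in HF and 108 in RD (-0.80, interval -1.08 to -0.53), and the T cell attractants Cxcl9 and Cxcl10 had 24.9 in HF.NOB, 50.7 in HF and 31.7 in RD (interval -1.78 to -0.30) and 24.9 in HF.NOB, 47.3 in HF and 14.7 in RD (-0.90). HF.NOB was lower than HF for each of the 6, and near RD for Oas1a and Mx1. Against RD, 18 of the 30 were higher in HF.NOB and 12 lower (median 0.12), and 26 were higher in HF (median 0.77). The HF library at ZT18 was the highest of the 6 for 10 of the 30, against 15.3% of all genes, and HF.NOB the lowest for 3. The 2 exceptions, Ifit3b and Gbp4 (both taken up because they were the exceptions), had 144 in HF.NOB and 135 in HF and 537 in HF.NOB and 481 in HF, and Ifit3b shares much sequence with Ifit3, so that reads could be divided between them.

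**Figure D5:**
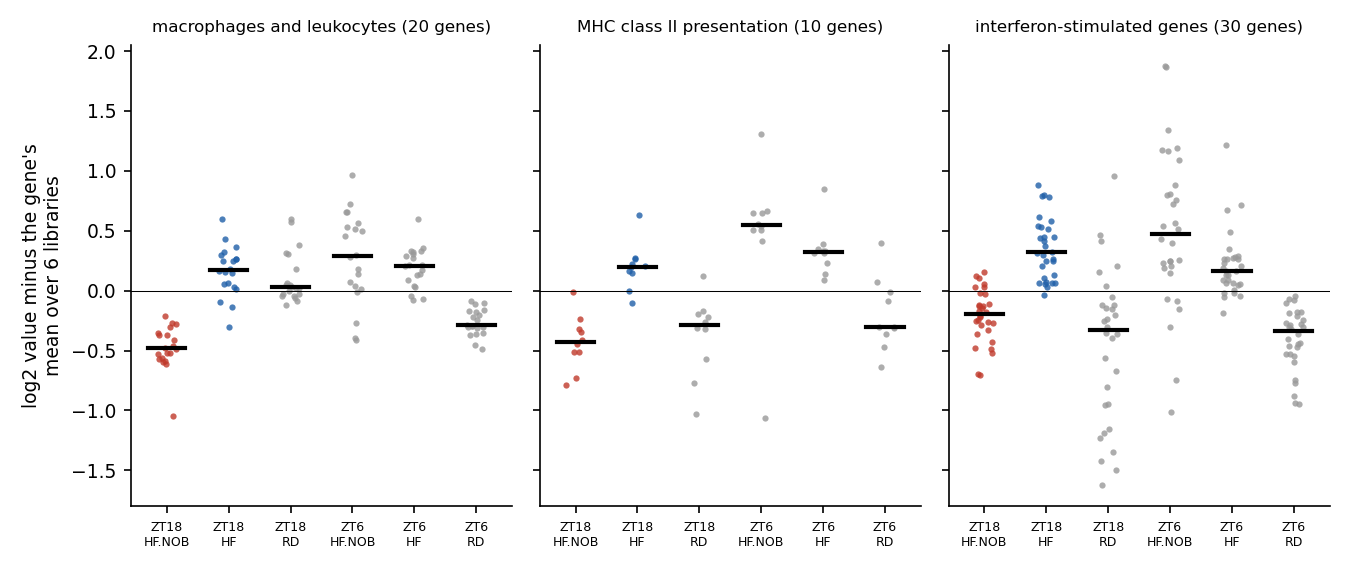
Log2 value of each gene less its mean over the 6 libraries (vertical axis), for 3 gene lists in the 6 libraries (horizontal axis), 1 point per gene with the median as a black bar, HF.NOB at ZT18 in red and HF at ZT18 in blue. The median of macrophage and leukocyte genes is -0.48 in HF.NOB and 0.17 in HF at ZT18, that of MHC class II genes -0.43 in HF.NOB and 0.20 in HF, and that of interferon-stimulated genes -0.19 in HF.NOB and 0.32 in HF.

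Genes of connective tissue were mostly lower, by less. Of 25 collagens 20 were lower (median -0.21), with Col4a1, of basement membranes, at 3174 in HF.NOB, 4307 in HF and 2305 in RD (-0.44), Col14a1, a fibril-associated collagen, at 239 in HF.NOB, 387 in HF and 212 in RD (-0.69), and Col3a1, a fibrillar collagen, at 2171 in HF.NOB, 2761 in HF and 1346 in RD (-0.35). All 3 were above RD in HF.NOB, as were 24 of 25 collagens. Of 31 matrix remodelling genes 20 were lower and 11 higher (median -0.14), 4 of the lower ones past 1.5-fold, against 11.9% of all genes. Fn1, fibronectin, had 1811 in HF.NOB, 2743 in HF and 1659 in RD (-0.60), and Bgn, biglycan, had 1991 in HF.NOB, 2822 in HF and 1544 in RD (-0.50). The highest fold of this list was that of Mmp9, a gelatinase, with 37.3 in HF.NOB, 25.9 in HF and 73.6 in RD (0.51, interval -0.25 to 1.34). Fibroblast markers were lower in 11 of 14 genes (median -0.30), for instance Pi16, a marker of fibroblast progenitors, with 859 in HF.NOB, 1189 in HF and 639 in RD (-0.47).

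Adipocyte markers were lower in 13 of 14 genes (median -0.32), 4 past 1.5-fold, against 11.9% of all genes, and 12 of 14 were above RD in HF.NOB. Adipoq, adiponectin, had 353 in HF.NOB, 583 in HF and 161 in RD (-0.72, interval -0.92 to -0.53), Retn, resistin, had 43 in HF.NOB, 103 in HF and 58.8 in RD (-1.23, interval -1.80 to -0.72), and Lep, leptin, had 592 in HF.NOB, 801 in HF and 101 in RD (-0.44), and at ZT6 577 in HF.NOB, 517 in HF and 34.7 in RD. Fat cells that lie between and around the muscles carry these transcripts, and their part in the lipid and PPAR lists, which share Cidec with this one, was not tested. Endothelial markers were lower in 16 of 17 genes by little (median -0.17), with Aplnr, the apelin receptor, at 148 in HF.NOB, 249 in HF and 89.4 in RD (-0.74), and its ligand Apln at 72.7 in HF.NOB, 124 in HF and 20.4 in RD (-0.76). Smooth muscle and Schwann cell markers had medians near 0, of 0.07 and -0.01. The 12 tendon markers were split, 6 higher and 6 lower, with folds from -1.33 to 0.87 and a median of 0.04. Past 1.5-fold were 2 of the higher and 2 of the lower ones, against 9.54% and 11.9% of all genes. All 7 red blood cell transcripts were lower in HF.NOB than in HF and than in RD (median against HF -0.37), and Hbb-bs, a globin with near-identical copies, had 802 in HF.NOB, 1039 in HF and 2146 in RD (-0.37).

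Among protein-coding genes that averaged 20 or more, the 25 lowest folds ran from -2.46 for Capn11 to -1.25 for Trim30d, and Oas1a, Mx1, Top2a, Mki67, Rrm2 and Cxcl13 of the lists above are among them. Capn11, a calpain, had 2.87 in HF.NOB, 20.3 in HF and 26 in RD, and 1 read in HF at ZT6, so HF itself differed widely between times. Col28a1, a collagen of peripheral nerve, had 24.9 in HF.NOB, 84.5 in HF and 10.2 in RD (-1.73, interval -2.47 to -1.10), with HF the highest of the 6 libraries. Several others are genes of leukocytes: Lair1, an inhibitory receptor of immune cells, had 13.4 in HF.NOB, 36.1 in HF and 22.6 in RD, Ly86, a partner of a Toll-like receptor relative, had 19.1 in HF.NOB, 47.3 in HF and 37.3 in RD, Pou2f2, a B cell transcription factor, had 11.5 in HF.NOB, 33.8 in HF and 28.3 in RD, and Arhgap9, a regulator of small GTPases in blood cells, had 19.1 in HF.NOB, 47.3 in HF and 58.8 in RD. Each of these 4 was lowest in HF.NOB among the ZT18 libraries.

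The 25 highest folds ran from 1.02 for Ggt7 to 2.07 for Vmn2r1. After Cdh4 the most abundant of them was Kcnab1, a beta subunit of potassium channels, with 598 in HF.NOB, 234 in HF and 705 in RD at ZT18 (1.35, interval 1.12 to 1.58), and 281 in HF.NOB, 345 in HF and 687 in RD at ZT6. Dnase1, a secreted nuclease, had 291 in HF.NOB, 139.7 in HF and 226 in RD (1.05), Stk26, a kinase, had 176 in HF.NOB, 85.6 in HF and 173 in RD (1.03), and Tpx2, a spindle protein, had 163 in HF.NOB, 78.9 in HF and 129 in RD (1.03). Nos1ap, an adaptor of neuronal nitric oxide synthase, had 32.5 in HF.NOB, 9.02 in HF and 28.3 in RD, and Ryr2, the calcium release channel of heart, had 37.3 in HF.NOB, 15.8 in HF and 40.7 in RD. In Kcnab1, Stk26, Nos1ap and Ryr2 the HF library was the low one at ZT18, and HF.NOB was closer to RD than to HF.

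Of the other abundant genes by the same rule, the lowest after Sln and C1qb was G0s2, an inhibitor of the triglyceride lipase of fat and muscle, with 833 in HF.NOB, 1473 in HF and 822 in RD (-0.82, interval -0.95 to -0.70). Tubb6, a tubulin of stressed fibres, had 946 in HF.NOB, 1595 in HF and 1081 in RD (-0.75), and Ankrd1, a stretch-induced sarcomere protein, had 1059.6 in HF.NOB, 1734 in HF and 1005 in RD (-0.71). In these 3 genes HF was above both HF.NOB and RD at ZT18, and HF.NOB was closer to RD than to HF. Rasd2, a small GTPase, was higher in HF.NOB with 3873 in HF.NOB, 2362 in HF and 4395 in RD (0.71), and Slc16a10, a transporter of aromatic amino acids, with 2124 in HF.NOB, 1324 in HF and 1991 in RD (0.68).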

How the data were processed

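Per the study's methods, total RNA of frozen calf muscle was sequenced, reads were aligned to mm10 with TopHat2 2.0.12 and genes quantified with Cufflinks 2.2.1. The deposited table holds, for 26294 genes, a signal made of read counts divided by one factor per library. For the tool that gave the factors and for the strand of the reads, the answer is not given in the sources used here, so antisense and overlapping genes are uncertain. Dividing each column by the worth of 1 read, found from its low values, gave whole reads for 100% of values (tolerance 0.001). No column belonged to other samples. Identifiers were matched to GENCODE M21 (99.4% matched) for symbols, positions and transcript lengths.

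Log2 folds were taken with a pseudocount of 1 on genes averaging 1 or more, in Python 3.11.15 with NumPy 2.4.6, pandas 2.3.3 and SciPy 1.17.1. Counting intervals are exact (Clopper-Pearson) 95% intervals of the share of both libraries' reads; 0 reads were bounded by a floor of 3. The fold and interval were checked on simulated reads that varied by counting error alone, the error that the interval assumes. That check cannot speak to the spread between mice or libraries. As an alternative, edgeR 4.0.16 (R 4.3.3) tested the recovered reads of all 6 libraries with diet and time as terms, so that it averages over both times. At an adjusted p under 0.05 it called 0 genes higher and 0 lower (146 and 202 at an unadjusted p under 0.05).

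Genes are named by rule: the 25 highest and lowest folds among protein-coding genes averaging 20 or more, the 15 highest and lowest among those averaging 500 or more, up to 6 members of each list with the widest folds (averaging 5 or more), all clock, ROR and MHC class II genes, and genes the study names. Others are marked, and some genes that the rule names are not reported here. The members, lists and rule were chosen with earlier results of these data known. Alternatives in scaling, pseudocount, filter, transcript length, liver transcripts and fold threshold were computed, and filters at 50 and 100 were added after seeing the data. No set test was run, since each group is 1 library.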

Additional observations from a re-analysis of the deposited data

Results flagged for a closer look

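In 4 gene lists every member was on one side of HF at ZT18 and on the other side at ZT6. In each case the difference between the times was not tested, with 1 library a condition. The 9 nuclear-encoded subunits of complex III were all lower in HF.NOB at ZT18 (median log2 fold -0.11) and all higher at ZT6 (0.81). The 4 CII subunits had medians of -0.13 at ZT18 and 0.45 at ZT6. The 5 immunoproteasome genes had medians of -0.18 at ZT18 and 0.68 at ZT6, and the 7 blood cell genes had -0.37 at ZT18 and 3.33 at ZT6. At ZT6 the folds also followed transcript length (Spearman correlation -0.75 over 9998 protein-coding genes, against 0.07 at ZT18), and the part of that in these reversals was not tested.

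The liver transcripts of the HF library at ZT18 are signal outside the comparison. Over the whole liver list the summed normalised read count was 3617 in the HF.NOB library and 8608 in the HF library at ZT18. Alb had 7.65 in the HF.NOB library and 885 in the HF library, and Apob had 0 in the HF.NOB library and 212 in the HF library. The part of these transcripts in the other results was not tested, beyond the markers given beside them.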

How the results depend on the processing

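No paired analysis was possible because each group is 1 library and the counts come from no test. The number of genes at least 1.5-fold higher (1921) and lower (2406) in HF.NOB depended on how scarce genes were treated. It was 990 and 1272 with a pseudocount of 5, 3051 and 3473 without a filter, and 501 and 722 with a mean of at least 10. Filters added after the data had been seen gave 110 and 209 at a mean of 50 and 67 and 114 at a mean of 100. Past 2-fold there were 937 and 1262 genes, and with an interval of the ratio that excluded 1 there were 272 and 568. With the trend of transcript length subtracted, which keeps only genes averaging 50 or more, it was 104 and 224, so that the share of higher genes among those past 1.5-fold was 31.7%, against 44.4% over all genes and 34.5% under the same filter without the subtraction. The edgeR test called 0 and 0 genes on 6 libraries (146 and 202 at an unadjusted p under 0.05), and 96 and 142 at an adjusted p under 0.05 without the HF.NOB library at ZT6, when 1 residual degree of freedom was left and the lone HF.NOB library was assumed to vary like the other groups. With other scalings, a pseudocount of 0.1, liver transcripts kept, or every gene of the liver pattern set aside, both counts remained within 1.5 times. The proliferation list changed sign, its median being 0.13 with transcript length subtracted and between -0.19 and -0.10 in the other settings. With that subtraction 3 other list medians moved by 0.1 or more and kept their sign. Clock activators went from 0.27 to 0.12, ROR receptors from 0.29 to 0.18 and tendon from 0.04 to 0.32. The whole circadian clock list went from 0.20 to 0.13. The subtraction also keeps only genes averaging 50 or more, and the part of that filter alone in these changes was not computed. Of 61 lists, 40 had a median past 0.1 in size, and 39 of these had one sign in every setting. Of 150 named genes past 1.5-fold, 136 remained so with a pseudocount of 5, and between 147 and 150 with each other scaling. Lymphocyte genes rest on few reads, and every value rests on a single library per condition.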

Other observations

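A few transcripts are given as values, chosen after those values were seen. H19, an imprinted long noncoding RNA of embryonic and regenerating muscle, had 11222 in HF.NOB, 16774 in HF and 12163 in RD at ZT18 (-0.58 on the log2 scale, interval -0.61 to -0.54). Mb, myoglobin, which stores oxygen in oxidative fibres, had 91952 in HF.NOB, 121589 in HF and 54279.99 in RD at ZT18 (-0.40). It was lower in HF.NOB than in HF, as were the fast chains Myh1 and Myh2, while most slow fibre genes were higher. The keratins Krt18 and Krt8, of simple epithelia, had 309 in HF.NOB, 658 in HF and 181 in RD (-1.09) and 88 in HF.NOB, 158 in HF and 40.7 in RD (-0.84). The HF library at ZT18 also held liver transcripts, with 885 for Alb, and their part in the keratin values was not tested.

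The immunoglobulin constant chains Ighm and Igkc had 5067 in HF.NOB, 6038 in HF and 5081 in RD (-0.25) and 147 in HF.NOB, 149 in HF and 361 in RD (-0.01, interval -0.36 to 0.33). Igkc thus differed by less than its counting error, and at ZT6 it had 2919 in HF.NOB, 169.7 in HF and 49.4 in RD.

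Among the neutrophil and acute phase genes, S100a8, a calcium-binding alarmin of neutrophils, had 6.69 in HF.NOB, 9.02 in HF and 79.2 in RD, and Lcn2, a siderophore-binding protein, had 12.4 in HF.NOB, 20.3 in HF and 165 in RD. Both high-fat libraries were far under RD for these 2 genes, and their intervals between HF.NOB and HF, -2.13 to 1.23 and -1.86 to 0.40, spanned 0.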
